A study of Homo sapiens with 6 samples.

Results

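MALAT1, NEAT1, UCA1 and LMNTD2-AS1 are 4 genes for long noncoding RNAs, out of 19775 genes that have a probe set of their own on the Affymetrix U133 Plus 2.0 array. They were selected on their higher signal late in culture in earlier results from these arrays, so their differences between culture days are given as a description and carry no test. The arrays hold 25 probe sets annotated to them: 12 for MALAT1, 9 for NEAT1, 1 for UCA1 and 3 for LMNTD2-AS1. A probe set is a group of short probes read together as 1 value. Each of the 9 NEAT1 probe sets also carries the symbol MIR612, a microRNA gene that lies inside NEAT1 in the RefSeq table, and they are called NEAT1 probe sets here with that limit.

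The cells were HCA-7, an established human colorectal cancer cell line whose colonies in collagen are either cystic or spiky in shape. A cystic clone (CC3) and a spiky clone (SC1), with no other treatment named, were grown in the gel, and RNA of the middle gel layer was taken at day 5, 10 or 15. The 6 arrays are therefore 1 per clone and day. Each shape is 1 clone, so colony shape and clone cannot be told apart, and nothing in the labels says that the days came from separate cultures. A p-value here therefore reflects how these 6 arrays scatter, and that scatter may be technical.

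Long noncoding RNAs are transcripts without a long open reading frame, and many act within the nucleus. MALAT1 RNA gathers in nuclear speckles, where splicing factors are stored, and its stable end is formed by RNase P cleavage and a triple helix in place of a poly(A) tail made by the usual machinery. NEAT1, its neighbour on chromosome 11, is the scaffold on which paraspeckles form, bodies that also hold RNA-binding proteins such as NONO and SFPQ. UCA1 was first described in bladder cancer and is transcribed in many carcinomas, and LMNTD2-AS1 is an antisense gene named after LMNTD2, with no role known well enough to state.

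The RefSeq table of promoter windows for build GRCh38.p14 held 1 of the 4 genes, MALAT1, with 2 windows that each run from 250 bases before a start site to 50 bases after it. They are shown because all MALAT1 probe sets had higher signal at day 15, and because the windows differ in composition. Capitals mark matches, on either strand, to the motifs searched: ACGTG, a core that HIF factors of the hypoxia response can bind, and its other form GCGTG. The AP-1 motif searched was TGACTCA. For TEAD factors the letters were CATTCC, and for the TATA box they were TATAAA. No 2 matches in these windows overlap.
MALAT1 upstream window, chr11:65497488-65497787, plus strand: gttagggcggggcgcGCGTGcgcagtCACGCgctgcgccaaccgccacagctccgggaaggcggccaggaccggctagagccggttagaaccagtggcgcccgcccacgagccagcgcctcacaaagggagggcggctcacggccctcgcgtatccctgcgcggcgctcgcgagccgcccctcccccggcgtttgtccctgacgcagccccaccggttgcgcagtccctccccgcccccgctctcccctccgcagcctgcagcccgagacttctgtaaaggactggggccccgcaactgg
MALAT1 downstream window, chr11:65498795-65499094, plus strand: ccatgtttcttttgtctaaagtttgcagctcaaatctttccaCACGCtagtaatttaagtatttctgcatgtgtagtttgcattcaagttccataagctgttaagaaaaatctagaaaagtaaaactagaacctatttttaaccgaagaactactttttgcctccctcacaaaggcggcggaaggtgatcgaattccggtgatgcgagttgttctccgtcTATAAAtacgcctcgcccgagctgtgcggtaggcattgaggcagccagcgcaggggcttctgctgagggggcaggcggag

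The upstream window had a GC content of 73.7% and the downstream one of 46.0%, against a median of 58.7% over all 35116 windows. GCGTG occurred 2 times in the upstream window, from positions -235 and -224 relative to the start site, and 1 time in the downstream window, from position -208. That motif is found in 36.5% of all windows of this length. TATAAA started at position -30 in the downstream window and is found in 11.5% of all windows. The letters ACGTG are found in 21.4% of all windows, the AP-1 motif in 4.95% and the TEAD motif in 14.0%, and none of these 3 occurred in either MALAT1 window. A match describes the sequence and is not evidence of a bound site.

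All 12 MALAT1 probe sets had higher values at day 15 than at day 5 in both clones, with every probe set stepping up from day 5 to 10 and again from day 10 to 15. The probe set with the highest mean, 231735_s_at, read 12.81, 13.24 and 13.60 (log2 signal) in the cystic clone at day 5, 10 and 15, and 12.83, 13.17 and 13.72 in the spiky clone. The 2 clones followed each other closely and the arrays of day 5 and day 15 did not overlap. The largest difference was that of 224568_x_at, which read 11.26, 12.07 and 12.74 in the cystic and 11.29, 12.11 and 12.94 in the spiky clone. This is 2.80-fold in the cystic and 3.15-fold in the spiky clone between day 5 and day 15. The differences between these days, averaged over the clones, ran from 0.61 to 1.57 on the log2 scale with a median of 1.04, where all 29412 tested probe sets had a median of -0.05. In bulk RNA, more cells of a type and more RNA per cell cannot be told apart.

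**Figure D1:**
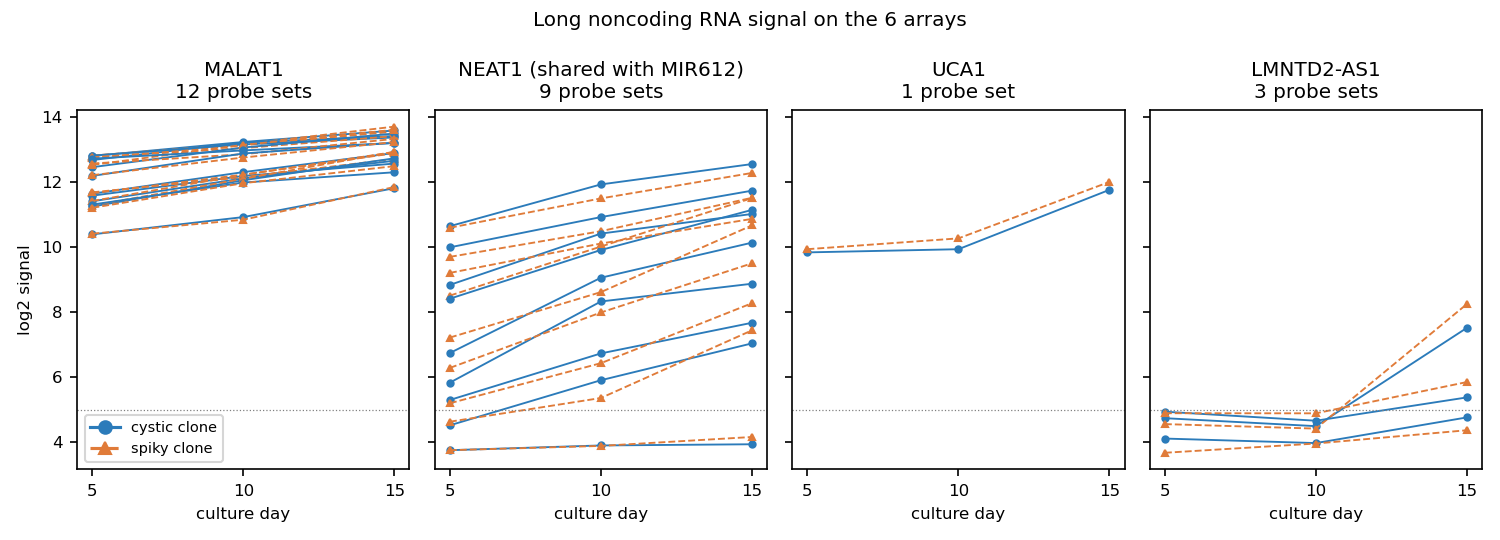
Log2 signal of every probe set of the 4 genes against culture day, with 1 line per probe set, circles for the cystic and triangles for the spiky clone, and a dotted line at log2 5, the mean required for testing. MALAT1 and NEAT1 lines rise at both steps. UCA1 rises mostly between day 10 and day 15, from 9.94 to 11.77 in the cystic and from 10.27 to 12.01 in the spiky clone.

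The MALAT1 probe sets did not give the same size of difference. The 6 with the lower mean signal, from 11.0 to 12.3, had differences between day 15 and day 5 of 1.01 to 1.57 (median 1.31). The 6 with the higher mean signal, from 12.8 to 13.2, had differences of 0.61 to 1.06 (median 0.81). Across the 12 probe sets, which share the arrays and in part the transcript, mean signal and difference had r = -0.78. Probe sets are not independent replicates. The highest value on any array was 15.07, and whether the brightest probe sets understate a change was not tested. In shape over the 6 arrays the 12 probe sets were alike, with a lowest pairwise r of 0.937 among the 66 pairs. Of the 12, 7 have names ending in _x_at, whose probes may also bind related sequences, and 4 have names ending in _s_at, which may bind several transcripts. The remaining one, 224559_at, read 10.40, 10.93 and 11.82 in the cystic and 10.42, 10.85 and 11.86 in the spiky clone.

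NEAT1 showed larger differences than MALAT1 in 8 of its 9 probe sets. At 224566_at, which had the highest mean, signal was 10.65, 11.94 and 12.56 in the cystic clone at day 5, 10 and 15 and 10.60, 11.51 and 12.29 in the spiky clone. At 225239_at it was 6.75, 9.06 and 10.14 in the cystic and 7.22, 8.62 and 10.67 in the spiky clone, which is 10.5-fold and 11.0-fold between day 5 and day 15. This was the 5th largest difference of all 29412 tested probe sets, at 3.43 averaged over the clones. The other 2 differences above 2.7 were those of 227062_at, at 3.13, and 220983_s_at, at 2.73.

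The 8 NEAT1 probe sets that passed the filter on dim values had differences between 1.78 and 3.43 with a median of 2.63. All of them, like the 9th, stepped up at both steps in both clones. The 9th, 239269_at, stayed dim at 3.75, 3.90 and 3.93 in the cystic and 3.75, 3.88 and 4.16 in the spiky clone, and was not tested. The lowest pairwise r among the 8 tested probe sets over the 6 arrays was 0.905. The files do not give the position of the probes, so the short and the long NEAT1 transcript could not be assigned.

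**Figure D2:**
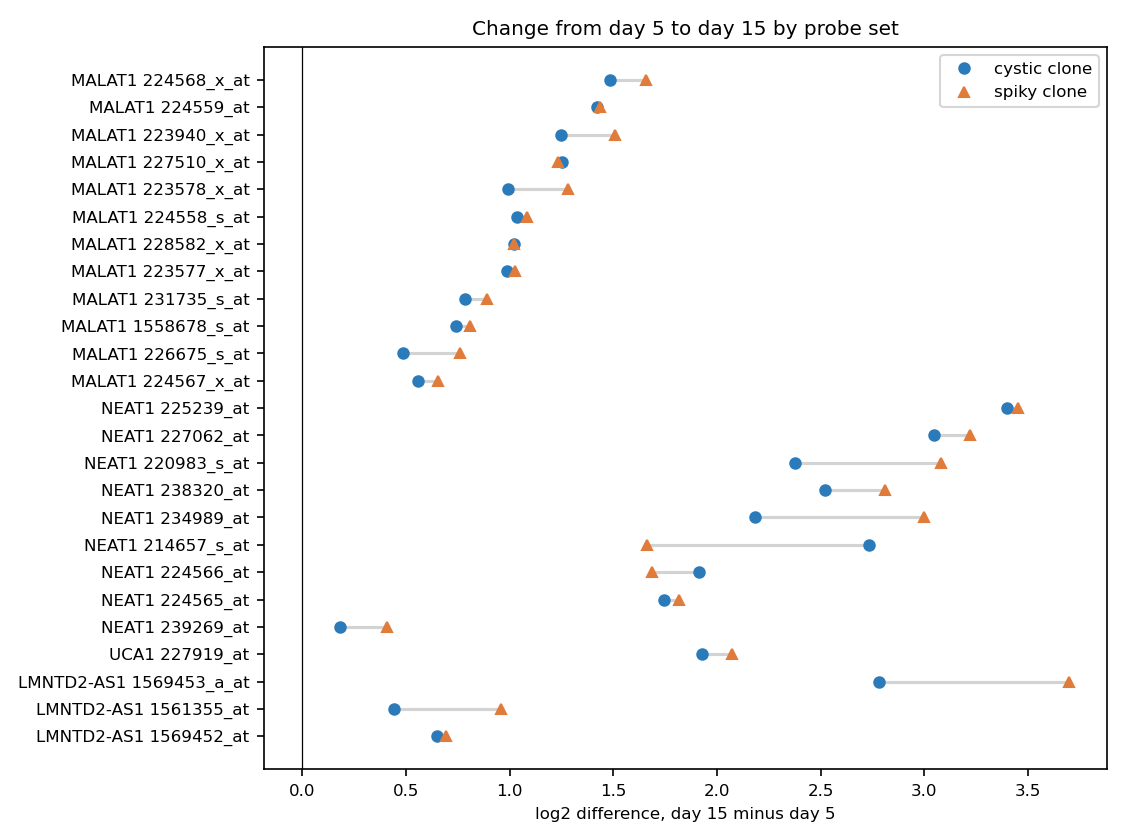
Log2 difference between day 15 and day 5 for each of the 25 probe sets, with a circle for the cystic and a triangle for the spiky clone, joined by a grey line. Points of LMNTD2-AS1 and of NEAT1 239269_at and 238320_at start from day 5 values under log2 5, and MALAT1 averages lie between 0.61 and 1.57 while 8 of 9 NEAT1 averages lie between 1.78 and 3.43.

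UCA1, with a single probe set, read 9.84, 9.94 and 11.77 in the cystic and 9.94, 10.27 and 12.01 in the spiky clone. The order from lowest to highest was cystic day 5, cystic day 10, spiky day 5, spiky day 10, cystic day 15 and spiky day 15. With 1 array per clone and day, whether neighbours in this order differ beyond replicate spread cannot be judged, and the gap between both day 15 arrays and all others was the widest. Signal at day 15 was higher than at day 5 by 1.93 on the log2 scale in the cystic and by 2.07 in the spiky clone.

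LMNTD2-AS1 has 3 probe sets, and 1 of them gave clear signal at day 15. 1569453_a_at read 4.74, 4.49 and 7.52 in the cystic clone and 4.56, 4.42 and 8.25 in the spiky clone. The day 5 and day 10 arrays were all under log2 5, close to background, so with such arrays set to 5 the difference is at least 5.73-fold in the cystic and at least 9.53-fold in the spiky clone. 1561355_at read 4.94, 4.66 and 5.38 in the cystic and 4.89, 4.89 and 5.85 in the spiky clone, where only the day 15 arrays were above log2 5. With the day 5 arrays set to 5 the difference is 1.30-fold and 1.80-fold. Its day 15 values are themselves close to background, so these folds are no lower bound on a change. The last, 1569452_at, was 4.11, 3.97 and 4.76 in the cystic and 3.67, 3.96 and 4.37 in the spiky clone and was below the level required for testing on every array. No difference is given for it, and the wide gap at day 15 was that of 1569453_a_at.

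NEAT1 and MALAT1 had covered similar shares of their difference by day 10, and UCA1 a smaller one. By day 10 the 8 tested NEAT1 probe sets had covered a median of 54.5% of their difference between day 5 and day 15 (range 39.7% to 67.1%). The MALAT1 probe sets had covered 52.6% (33.7% to 63.1% over 12). The lowest NEAT1 share was that of 238320_at, whose day 5 values, 4.52 and 4.63, were under log2 5. UCA1 had covered 10.8%. For LMNTD2-AS1 1569453_a_at no share is given, since all its day 5 and day 10 values were under log2 5. For the 8 tested NEAT1 probe sets the median share was 63.8% in the cystic and 46.9% in the spiky clone. For MALAT1 they were 57.4% and 47.5%. These are single arrays, and the timing itself was not tested.

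**Figure D3:**
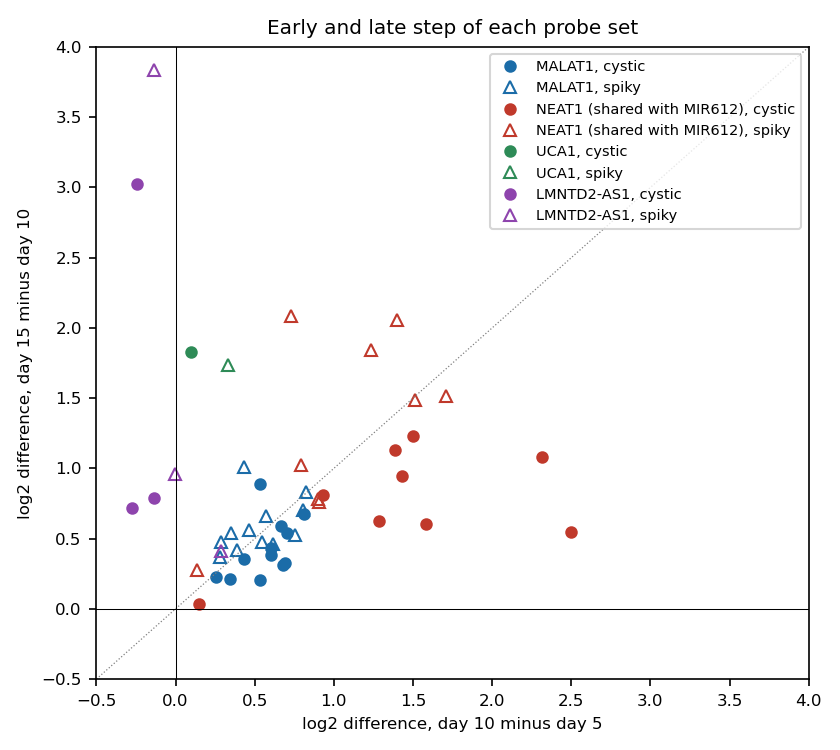
Log2 difference from day 5 to day 10 (horizontal) against that from day 10 to day 15 (vertical) for each probe set and clone, with filled circles for the cystic and open triangles for the spiky clone and a dotted line where both steps are equal. UCA1, at 0.10 and 1.83 in the cystic clone, lies near the vertical axis, as do LMNTD2-AS1 points whose day 5 and day 10 values were under log2 5, while NEAT1 in the cystic clone lies mostly to the right of the line.

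The comparison of the spiky with the cystic clone did not enter the choice of the genes and was tested with limma across all 29412 probe sets with a mean log2 of at least 5, with culture day in the model and Benjamini-Hochberg adjustment. Of the 15 tested probe sets annotated to MALAT1, UCA1 or LMNTD2-AS1 alone, limma called 0 (1 at an unadjusted p under 0.05), and of the 8 NEAT1 probe sets it called 1 (2 unadjusted), against 9.21% of all probe sets called. Of the 15, 12 read MALAT1 and are not independent. The 2 of LMNTD2-AS1 passed the filter only through their day 15 values. The counts are therefore not a set of separate tests to weigh against that share. Of all calls 34.5% were higher in the spiky clone, and 47.2% with each array centred on its median. The median difference over the 23 tested probe sets was 0.04 and that over all probe sets was -0.02.

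MALAT1 differences between the clones ran from -0.05 to 0.13 on the log2 scale. The widest interval reached from -0.16 to 0.14 for 224559_at, and the highest difference, 0.13 for 223940_x_at, had an interval of -0.01 to 0.27 (limma adjusted p = 0.253). The intervals are 95% and rest on the moderated spread of these 6 arrays. UCA1 was 0.10, 0.33 and 0.24 higher in the spiky clone at day 5, 10 and 15, a fitted difference of 0.23 (SE 0.08, interval 0.05 to 0.40), which did not pass the adjustment (limma adjusted p = 0.118). LMNTD2-AS1 1569453_a_at had 0.16 (SE 0.23, limma adjusted p = 0.758). Its day 5 and day 10 values lay under log2 5 in both clones, and at day 15 the spiky clone was 0.73 higher.

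NEAT1 probe sets disagreed in the sign of the clone difference. 224565_at was lower in the spiky clone by -0.29, -0.43 and -0.22 at day 5, 10 and 15, a fitted difference of -0.32 (SE 0.08, limma adjusted p = 0.0310), the only one of the 23 that passed. 224566_at was at -0.25 (SE 0.08, adjusted p = 0.0739) with negative values at all 3 days. In contrast, 214657_s_at, 225239_at and 227062_at had fitted differences of 0.24, 0.19 and 0.25 with limma adjusted p of 0.450, 0.616 and 0.509. The difference of 224565_at stayed between -0.26 and -0.36 under the alternatives, but its call did not always hold. It passed after cyclic loess (-0.32, limma adjusted p = 0.0259). Its limma adjusted p was 0.0583 with each array centred on its median, 0.0599 without the filter, 0.979 without culture day in the model, and 0.132 to 0.276 when any one of the day 5 or day 10 arrays was left out. Without a day 15 array, in contrast, limma called 4 of the 8 NEAT1 probe sets, 1 higher and 3 lower in the spiky clone. The higher one was 214657_s_at at 0.50, and the lower ones were 224565_at, 224566_at and 234989_at at -0.36, -0.24 and -0.36. These differences were the same whichever day 15 array was left out, since only days 5 and 10 then compare the clones.

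**Figure D4:**
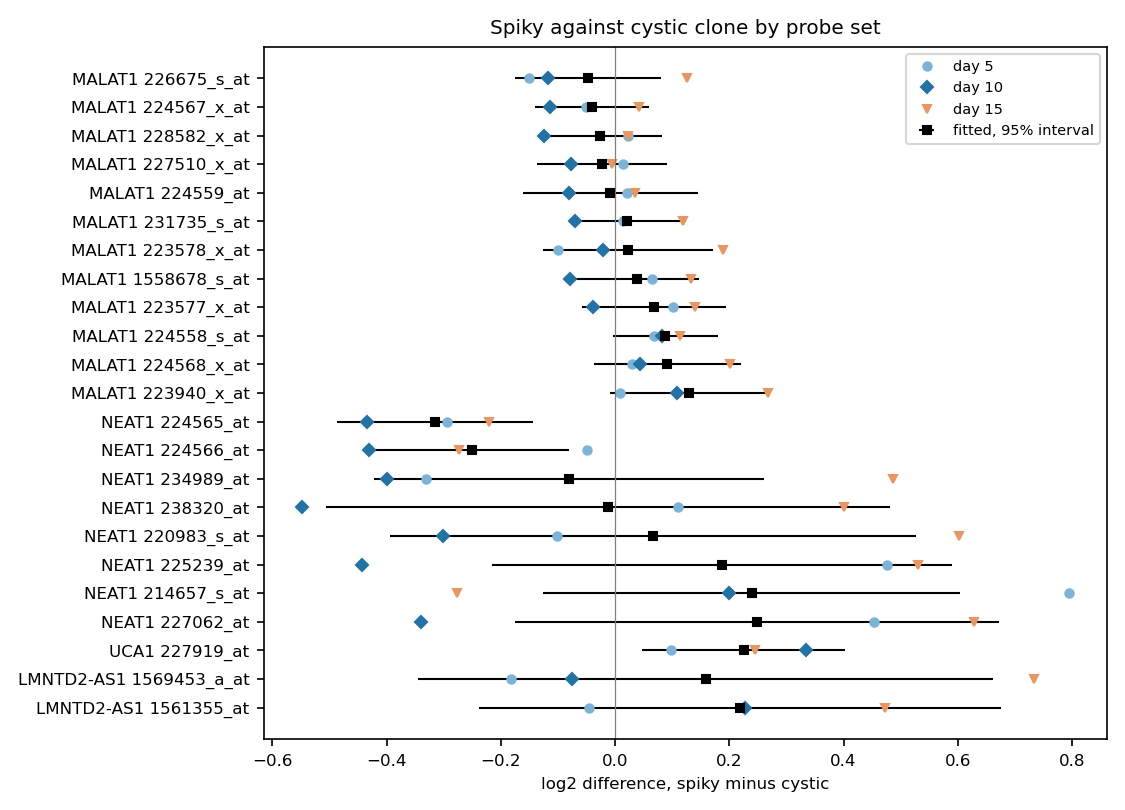
Log2 difference of the spiky minus the cystic clone for the 23 tested probe sets, with coloured points for the 3 days and a black square with its 95% interval for the fitted difference. MALAT1 squares lie between -0.05 and 0.13, and among the NEAT1 probe sets the intervals of 224565_at and 224566_at do not reach 0.

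At day 10 NEAT1 signal was lower in the spiky clone for all but 1 of the 8 tested probe sets (median -0.41), the exception being 214657_s_at at 0.20. At day 15 it was higher in the spiky clone for 5 of the 8 (median 0.44). These probe sets read 1 gene on the same arrays, so they are not independent. A difference between the clones in slope per 10 days, in a model with day as a number, was tested across all probe sets. limma called 0 of 29412 (0%; 772 at an unadjusted p under 0.05) and therefore none of the 23. The largest slope difference was that of 214657_s_at, at -1.07 per 10 days (SE 0.29, limma adjusted p = 0.9998, unadjusted p = 0.00681): it read 8.42, 9.92 and 11.15 in the cystic and 9.21, 10.12 and 10.87 in the spiky clone. 234989_at leaned the other way, at 0.82 (SE 0.40, limma adjusted p = 0.9998), with 8.84, 10.42 and 11.03 in the cystic and 8.51, 10.02 and 11.51 in the spiky clone.

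The genes next to the 4 on their chromosomes were taken from the RefSeq order, 2 on each side with a tested probe set of their own. Around NEAT1 and MALAT1 on chromosome 11, FRMD8, SLC25A45 and LTBP3 had differences of -0.05, 0.48 and -0.07 between day 15 and day 5, and ZNRD2-DT had 0.57, with limma adjusted p from 0.0864 to 0.825. None of these neighbours passed, against 29.6% of all probe sets called in this comparison. Beside LMNTD2-AS1 on the same chromosome, HRAS was at -0.83 (limma adjusted p = 0.00515) and PHRF1 at -0.59 (0.0180), whereas LMNTD2 was at 0.12 (0.802) and RASSF7 at 0.48 (0.0769). LMNTD2 read 6.20, 6.11 and 6.77 in the cystic and 5.72, 5.80 and 5.38 in the spiky clone, so it had no gap between day 15 and the other days like that of LMNTD2-AS1 1569453_a_at.

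UCA1 lies on chromosome 19 among genes of the CYP4F family, which encode fatty acid hydroxylases. CYP4F12, before it, read 6.05, 6.61 and 7.76 in the cystic and 5.62, 6.09 and 7.93 in the spiky clone, a difference of 2.01 between day 15 and day 5 (SE 0.23, limma adjusted p = 0.000463). It was read through an _s_at probe set, which may bind several transcripts. CYP4F11, after UCA1, was at 0.78 (SE 0.23, limma adjusted p = 0.0298). CYP4F2 was at 0.48 (limma adjusted p = 0.137) through an _x_at probe set, which can detect its relatives, and WIZ at -0.56 (0.0770). Thus 2 of the 4 neighbours passed, both higher at day 15, where 10.4% of all genes were called higher and 21.8% lower.

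The genes most alike over the 6 arrays were sought among 3593 genes with a tested probe set and a range of at least 1 on the log2 scale. All values come from the same 6 arrays, so these r values are a description. For MALAT1 231735_s_at they were AP1G2-AS1, ZXDC and ZNF440 (r = 0.996, 0.992 and 0.992), and for NEAT1 224566_at SEC31B, GABBR1 and LENG8 (each r = 0.990). For UCA1 they were ZBTB18, PTGS1 and ASAP3 (r = 0.996, 0.995 and 0.991). For LMNTD2-AS1 1569453_a_at they were TSPEAR-AS2 (r = 0.999), EGLN3, a prolyl hydroxylase that marks HIF for destruction (r = 0.998), and BNIP3L, a mitophagy receptor (r = 0.997). EGLN3 read 4.68, 4.73 and 7.35 in the cystic and 4.59, 4.56 and 7.95 in the spiky clone. Among the 4 genes themselves MALAT1 and NEAT1 had r = 0.96, and UCA1 and LMNTD2-AS1 r = 0.98. MALAT1 had r = 0.91 with UCA1 and 0.86 with LMNTD2-AS1, and NEAT1 had r = 0.80 with UCA1 and 0.73 with LMNTD2-AS1.

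Genes for proteins of the nuclear bodies of NEAT1 and MALAT1 were called in both directions between day 5 and day 15. Each gene is counted by its highest-mean probe set, and over all 12317 genes 10.4% were called higher and 21.8% lower at day 15, with a median of -0.11. Counted over probe sets, 43.7% of calls were higher at day 15, and 33.4% with arrays centred on their medians or 54.2% after cyclic loess. Of 37 tested genes for paraspeckle proteins 7 rose and 11 fell (median -0.13). BCL6, a transcriptional repressor, was at 1.27 (SE 0.17, limma adjusted p = 0.000884) and ZC3H6 at 1.24, while FAM98A was at -1.34 and the RNA-binding protein gene RBM14, which is needed to build paraspeckles, at -0.94 (SE 0.19, adjusted p = 0.00565). Of 31 genes for nuclear speckle proteins 6 rose and 7 fell (median -0.05), with the scaffold gene SRRM2 and LUC7L3 each at 0.87, the kinase gene CLK4 at -1.21 and the splicing factor gene SRSF7 at -0.55.

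Genes for enzymes that process or degrade such RNAs were counted in the same way. Of 20 tested genes, most of them for RNase P subunits, m6A enzymes and the nuclear exosome, 14 fell and 1 rose, with a median of -0.69. Over all 12317 genes 21.8% fell and 10.4% rose. RPP40 and POP1, both RNase P subunits, were at -1.60 (SE 0.21, limma adjusted p = 0.000804) and -1.55. PABPN1, the nuclear poly(A) binding protein, was the exception at 1.74, with 5.13, 7.20 and 7.003 in the cystic and 5.77, 6.78 and 7.39 in the spiky clone.

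Other long noncoding RNAs were counted as a listed group and as a class. Of 37 tested in the listed group 9 rose and 2 fell (median 0.16): LINC00963 was at 1.49 (SE 0.21, limma adjusted p = 0.00101) and EPB41L4A-AS1 at 1.16, and DANCR, a suppressor of differentiation, at -1.11 and the snoRNA host SNHG17 at -0.70. Of all 639 tested genes that RefSeq types as long noncoding or antisense, 85 rose and 40 fell, with a median of 0.08. Over all 12317 genes 10.4% rose and 21.8% fell. Each of these 639 is represented by its highest-mean probe set with 1 symbol. Of them, 2 exceeded the difference of NEAT1 224566_at, which has 2 symbols, 1 that of UCA1 and 53 that of MALAT1 231735_s_at. NEAT1, UCA1 and MALAT1 were chosen on this same difference, so these counts are a description only.

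Of 30 tested hypoxia-inducible genes 20 rose and 3 fell at day 15, with a median of 0.98, where 10.4% of all 12317 genes rose and 21.8% fell. DDIT4, which restrains mTOR, was at 3.08 (SE 0.28, limma adjusted p = 0.000166) and EGLN3 at 3.01, while the secreted glycoprotein gene STC2 was at -1.15 and the hydroxylase gene JMJD6 at -0.93. DDIT4 read 9.85, 9.68 and 12.20 in the cystic and 9.06, 8.95 and 12.88 in the spiky clone, without a step up between day 5 and day 10. This list overlaps genes already reported for these arrays and is no independent evidence.

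**Figure D5:**
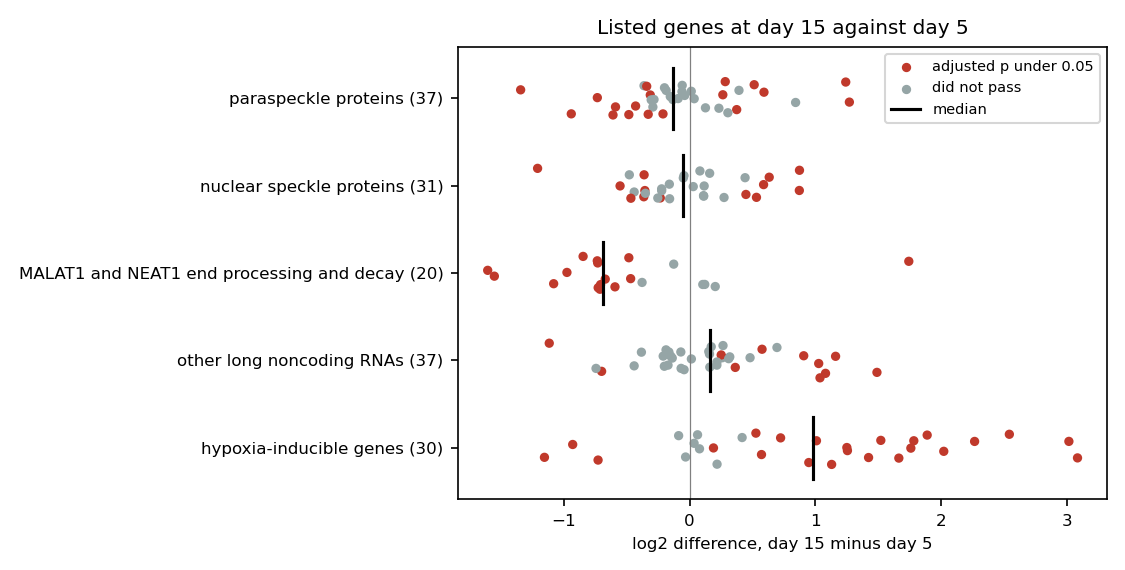
Log2 difference between day 15 and day 5 for each tested gene of the 5 lists (1 point per gene, red where limma's adjusted p was under 0.05, with the number of genes in brackets and a black line at the median). The medians lie at -0.13, -0.05, -0.69, 0.16 and 0.98 from the paraspeckle list at the top to the hypoxia list at the bottom.

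The same lists were compared between the clones, beside 3.65% of all 12317 genes called higher and 7.51% called lower in the spiky clone. In the paraspeckle list 1 of 37 rose, the chromatin remodelling subunit gene SMARCB1 at 0.34 (SE 0.08, limma adjusted p = 0.0306), and 0 fell. In the speckle list SRRM2 rose at 0.40 and 3 of 31 fell. These were the kinase gene DYRK1A at -0.72 (SE 0.09, limma adjusted p = 0.00164), U2AF1, which recognises the 3′ splice site, at -0.54, and SON at -0.34. Of 37 other long noncoding RNAs 2 fell, DLEU2 at -0.97 and DLEU1 at -0.64, and 0 rose. Whether the genes called lower lie near each other on a chromosome was not examined. Of the 30 hypoxia-inducible genes 4 rose and 2 fell. Of the 20 genes for processing and decay limma called 0 in either direction (4 at an unadjusted p under 0.05). Of the 639 long noncoding or antisense genes 13 rose and 30 fell.

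Values that bear on RNA quality, and marker lists of other cell types, are given here by culture day. Their part in these results was not tested. The 3′ over 5′ signal difference of the ACTB control probe sets went from 2.83 and 2.73 at day 5 (cystic and spiky) to 3.28 and 3.10 at day 15, whereas that of GAPDH went from 0.65 and 0.60 to 0.63 and 0.49. The hybridisation control BioB read 11.1 to 11.2 on the cystic arrays and 10.9, 11.0 and 11.5 on the spiky arrays. Of 10 epithelial markers 6, EPCAM, CDH1 and KRT8 among them, had a mean of at least log2 5, with a summed level of 13.8 to 14.3 on all arrays, while KRT20, CDX2, LGALS4 and CDH17 were below it. Of 10 fibroblast markers 2 reached log2 5. Their list summed to 7.99 to 8.22 at day 5 and 10, and at day 15 to 8.86 in the cystic and 8.54 in the spiky clone. Of 8 leukocyte markers on the array 4 reached it. That list summed to 9.65, 9.88 and 10.9 at day 5, 10 and 15 in the cystic clone and to 8.63, 8.75 and 9.67 in the spiky clone. Of 4 endothelial markers 0 reached it (summed 5.88 to 6.18 at day 5 and 10, then 6.55 in the cystic and 6.71 in the spiky clone). The leukocyte markers that reached it were CD3D, LYZ, CSF1R and CORO1A, and the fibroblast markers COL1A1 and FBLN1. The other members of both lists on the array, PTPRC and DCN among them, had means under log2 5.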

How the data were processed

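Expression was measured on 6 Affymetrix U133 Plus 2.0 arrays, 1 for each clone and day. The deposited values are log2 signals that the authors made with RMA, per the submitters' processing notes, and the RMA version is not stated there. There is no read depth on arrays, so the number of arrays limits the precision. Array medians lay between 5.18 and 5.34.

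The 4 genes, the 5 gene lists and the marker lists were chosen with earlier results of these data known. Gene names came from the platform's table, updated by gene ID to RefSeq. Of 54675 probe sets 41097 had 1 symbol, 1801 several and 11777 none. The NEAT1 probe sets have 2 symbols, so they were counted apart from the 15 tested probe sets of 1 member alone. Control probe sets (62) were left out.

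Models were fitted with limma 3.58.1 (R 4.3.3) to 29412 probe sets with a mean log2 of at least 5, with culture day as a factor, colony shape and an intensity trend. This leaves 2 degrees of freedom for the residual. All tests are two-sided at an adjusted p of 0.05 (Benjamini-Hochberg over all tested probe sets). Genes were represented by their highest-mean probe set with 1 symbol. Day pairs the arrays by design: same-day arrays of the clones had correlated deviations (r = 0.62, 0.43 and 0.70), against -0.64 to 0.16 between different days. The code was tested on simulated data.

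Named genes were, per list, the 2 highest and 2 lowest differences that passed, the 3 most alike genes per member and the nearest neighbours. Alternatives were no filter, arrays centred on their medians, cyclic loess, no trend, 1 value per gene, a model without day or shape, and each array left out.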

Additional observations from a re-analysis of the deposited data

How the results depend on the processing

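All 207 differences between day 15 and day 5 of the 4 genes' probe sets under the alternatives stayed above 0. Of these, 50 moved by more than the spread between the clones. Leaving out the filter or a day 10 array cannot change this difference. The 4 genes were chosen on it, so its sign under the alternatives is a description. Of 230 differences between the clones, 14 changed their call. The 2709 probe sets called between the clones became 1405 counted per gene, 998 without the intensity trend and 110 with no replicate block, that is without the paired days, and 1230 to 4091 with 1 array left out. The 8700 called between day 15 and day 5 became 3982 per gene and 3142 without colony shape, and 2982 to 9090 with 1 array left out. The single NEAT1 call became 0 without the filter, with centred arrays, without the trend and with no replicate block, and 0 to 4 with 1 array left out. That count was added after seeing the data. The slope count of 0 became 1 at most, without the day 5 spiky array. The cause was not tested, beyond fewer genes or arrays entering some fits. Centring moved the median of all probe sets by 0.08 between day 15 and day 5. Each clone and day has 1 array, so no value has a replicate at the same day.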
